A study of Rattus norvegicus with 30 samples.

Results

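Pendrin (Slc26a4) and 7 other genes of epithelial ion transport were followed in rat lung after inhalation of copper oxide nanoparticles. The 8 genes were Slc26a4, Cftr, Ano1, Scnn1a, Scnn1b, Scnn1g, Slc12a2 and Atp1b1. Every array probe whose RefSeq transcript belonged to one of these symbols was taken, which gave 11 of the 30367 probes on the array; all 11 passed the filter on dim probes. Slc26a4 was chosen by its measured rise on day 6 in these arrays, so its values on that day are given as a description with no test. Adult male Wistar Unilever outbred rats (strain HsdCpb:WU), 8 weeks old on arrival and acclimatized for 2 weeks, breathed air or the particles through the nose. Exposure ran over 5 consecutive days at 6-hour equivalent concentrations of 3.3 mg/m3 (low dose) or 13.2 mg/m3 (high dose). Lungs were taken 1 day after the last exposure (day 6) or 22 days after it (day 28), with 5 different rats in each of the 6 groups. RNA of whole lung from each rat was hybridised on its own 2-colour array against a reference RNA common to all 30 arrays.

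Epithelia that line the airways and alveoli set the volume and acidity of the liquid on their surface by moving chloride, bicarbonate and sodium. Pendrin, in the apical membrane, exchanges chloride for bicarbonate and also carries thiocyanate and iodide. Cftr and Ano1 are apical chloride channels, the former opened through cAMP and the latter by calcium. Slc12a2 loads cells with chloride across the basolateral membrane, the epithelial sodium channel (Scnn1a, Scnn1b, Scnn1g) takes up sodium, and the sodium pump, of which Atp1b1 is a beta subunit, drives both directions. In airway epithelium pendrin is known as a gene induced by Il4, Il13 and Il17a.

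Values below are log2 ratios of lung over reference RNA, so a difference of 1 between groups is a 2-fold change. Levels of different probes were not compared. In whole-lung RNA, fewer cells of a type and less RNA per cell cannot be told apart. Median Cy5 brightness per array was 142 to 234, and 59.5% to 68.4% of probes were well above background. The epithelial identity of part of the tissue was visible, since all 12 pan-epithelial markers and all 9 type II cell markers on the array were measured. In 4 rats the mean of 10 heart muscle genes was above 2: air rat 4 (5.13) and low-dose rat 49 (2.92) on day 6, and low-dose rat 54 (2.06) and high-dose rat 83 (2.17) on day 28. The other 26 rats lay between -0.18 and 1.05. Results that change without these 4 rats are given with and without them.

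The promoter windows of Slc26a4 and Cftr, both higher at both doses on day 6, are shown as they stand in RefSeq on assembly GRCr8. Each run holds the 250 bases before 1 annotated start of the gene, 5′ to 3′ on the gene's strand. The annotated span of both genes reaches further upstream than the window, so the runs need not be the promoter used in lung. The window of Slc26a4 is chr6:53873217-53873466 on the minus strand and that of Cftr is chr4:47527379-47527628 on the plus strand.
Slc26a4: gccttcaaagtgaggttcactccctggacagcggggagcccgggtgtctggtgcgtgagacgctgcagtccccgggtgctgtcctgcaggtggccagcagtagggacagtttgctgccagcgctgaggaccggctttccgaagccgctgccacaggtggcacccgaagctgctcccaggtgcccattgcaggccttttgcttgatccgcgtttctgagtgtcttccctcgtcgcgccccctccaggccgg
Cftr: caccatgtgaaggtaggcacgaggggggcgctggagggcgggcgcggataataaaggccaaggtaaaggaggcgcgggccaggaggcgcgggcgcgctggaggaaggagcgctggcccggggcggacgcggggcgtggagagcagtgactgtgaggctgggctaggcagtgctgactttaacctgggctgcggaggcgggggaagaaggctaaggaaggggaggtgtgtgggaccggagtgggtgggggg
Both strands of the windows were searched for the STAT6-type letters TTC and GAA with 4 bases between them, the STAT-type letters TTCNNNGAA and the AP-1-type letters TGANTCA. None of the 3 was found in either window, and among all 27457 rat promoter windows of this length they occur in 6.34%, 7.57% and 6.41%. Windows could be read for 6 of the 8 genes, and the AP-1-type letters were present in that of Scnn1g alone, where TGACTCA begins 207 bases before the start. No letters are therefore in capitals above. Scnn1a and Atp1b1 are named only.

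Slc26a4 was barely above background in air-breathing rats and stood far higher in every exposed rat on day 6. The log2 ratios of the air rats of day 6 were 0.51, 0.47, 0.66, 0.09 and 0.55. Those of the low-dose rats were 2.95, 3.02, 3.03, 3.34 and 3.23. In the high-dose rats they were 4.22, 3.66, 4.30, 4.29 and 4.22. The groups formed 3 separate levels with no overlap, ordered by dose. Slc26a4 was picked for its day 6 rise, so its separation from air is not independent of that choice. Of all probes, 16.4% had every high-dose rat above every air rat and 5.12% every low-dose rat above every air rat. For 5.68% every high-dose rat was above every low-dose rat. Group means were 0.45 ± 0.22 in air, 3.12 ± 0.16 at the low dose and 4.14 ± 0.27 at the high dose (SD, n = 5). The mean was 2.66 higher at the low dose, or 6.33-fold, and 3.68 higher at the high dose, or 12.8-fold. The high dose lay 1.02 above the low dose, or 2.03-fold, and 0.31 above it with the scanner's processed signals. Ranked by size of increase among 11331 genes with a symbol, Slc26a4 was at position 10 at the low dose and 12 at the high dose. Both comparisons use the same 5 air rats. The raw brightness of the probe shows how low the starting point was: 92.5 to 162 in air, 922 to 1460 at the low dose and 2150 to 3000 at the high dose. The probe was well above background on 4 of 5 air arrays of day 6 and on all 10 exposed ones. Within the 4 array slides the high dose exceeded air by 3.13 to 4.13 and the low dose by 2.48 to 3.05.

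On day 28 pendrin mRNA in exposed rats lay close to the air rats, and no difference passed the test. The air rats of that day had log2 ratios of 0.08, 0.26, 0.20, 0.11 and 0.49. The low-dose rats had 0.46, 0.65, 0.14, 0.66 and 0.43. In the high-dose rats the values were 0.63, 0.43, 1.05, 0.54 and 0.53. Both exposed groups overlapped the air group, whose highest value was that of rat 10. Day 28 played no part in choosing the gene, so a test was made: the high-dose mean was 0.41 ± 0.13 above air (SE), with an adjusted p of 0.192 from limma and an unadjusted p of 0.00485. The low-dose mean was 0.24 ± 0.13 above air (adjusted p = 0.765), and the 2 doses differed by 0.17 ± 0.13 (adjusted p = 1). The Cy5 channel without the reference gave a high-dose difference of 0.65 (adjusted p = 0.0378), and the scanner's processed signals gave 1.84 (adjusted p = 0.0785). The probe was well above background on 2 of 5 air arrays of that day. From day 6 to day 28 the difference from air shrank by 3.27 at the high dose and by 2.42 at the low dose, given here as a description. With the processed signals the changes of effect were -2.02 and -2.38.

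**Figure D1:**
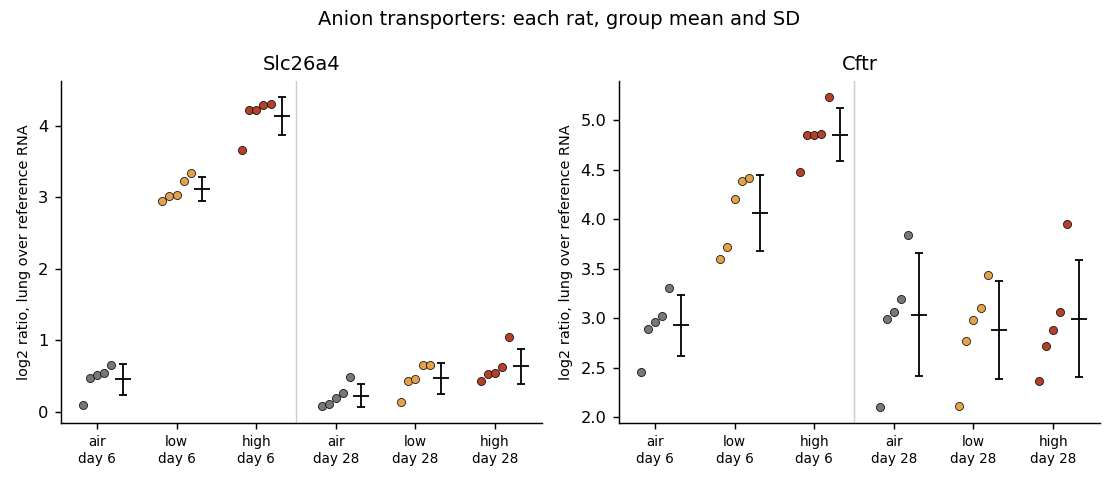
Log2 ratio of lung over reference RNA (y axis) for Slc26a4 (left) and Cftr (right) in the 6 groups (x axis), each point 1 rat, with the mean and SD of 5 rats beside the points. Slc26a4 forms 3 separate levels on day 6 (means 0.45, 3.12 and 4.14), Cftr does the same with smaller steps, and on day 28 the groups overlap for both.

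Cftr, the chloride and bicarbonate channel mutated in cystic fibrosis, rose at both doses on day 6. Its brighter probe read 2.89, 3.02, 2.46, 3.30 and 2.96 in the air rats. In low-dose rats it read 4.20, 3.60, 3.72, 4.39 and 4.42. At the high dose the values were 4.85, 4.48, 4.86, 4.85 and 5.24. The 3 groups did not overlap. The rise was 1.14 ± 0.28 at the low dose (2.20-fold, SE, adjusted p = 0.00912) and 1.93 ± 0.28 at the high dose (3.80-fold, adjusted p = 3.1e-06). Of all probes, 16.4% had every high-dose rat above every air rat, and 5.12% did so at the low dose. The 2 doses differed by 0.79 ± 0.28, with an adjusted p of 0.064 and an unadjusted p of 0.00813, although every high-dose rat lay above every low-dose rat (5.68% of all probes). That difference was 0.82 with the slide in the fit (adjusted p = 0.0376), 0.79 with only the groups compared (adjusted p = 0.0198), 0.96 with Cy5 alone (adjusted p = 0.00571) and -0.09 with the scanner's processed signals (adjusted p = 0.924), where the direction turned. With the scanner's processed signals the changes were 1.11 at the low dose (adjusted p = 0.0777) and 1.02 at the high dose (adjusted p = 0.0369).

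On day 28 Cftr differed from air by less than its spread. The air rats read 3.06, 2.99, 2.10, 3.19 and 3.84. The high-dose rats read 2.88, 2.36, 2.72, 3.95 and 3.06. The difference was -0.04 ± 0.28 (SE, adjusted p = 0.959), with a 95% interval from -0.61 to 0.52. At the low dose it was -0.16 ± 0.28 (adjusted p = 0.9). The effect of the high dose was smaller on day 28 than on day 6 by 1.97 ± 0.39 (adjusted p = 0.000601), and by 0.97 with an adjusted p of 0.226 in the processed signals. For the low dose the corresponding change of -1.30 ± 0.39 had an adjusted p of 0.0954. Without the 4 rats with heart muscle RNA it was -1.50 (adjusted p = 0.0418).

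A dimmer Cftr probe moved the same way with smaller values. It was not well above background on any of the 5 air arrays of day 6 and was above it on all 10 exposed ones. Its mean rose from 0.31 ± 0.14 in air to 0.90 ± 0.32 at the high dose (SD, n = 5; adjusted p = 0.000258), with some overlap between the groups. The low-dose change did not pass the test (adjusted p = 0.153), but passed with the processed signals (1.68, adjusted p = 0.0272), where the high-dose change was 2.02 (adjusted p = 0.00138), and with Cy5 alone (0.41, adjusted p = 0.0061).

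Ano1, the calcium-activated chloride channel, fell at the high dose on day 6. Its brighter probe read 1.32, 1.29, 1.39, 1.84 and 1.65 in air rats. The high-dose rats read 1.08, 1.08, 0.97, 1.18 and 1.19, all below the lowest air rat. The change was -0.40 ± 0.13 (1.32-fold lower, SE, adjusted p = 0.0149), and from -0.76 to -0.10 within the 4 slides. Of all probes, 10.8% had high-dose rats wholly below air. The highest air value belonged to rat 4, the lung with the most heart muscle RNA. Without that rat the change was -0.31 (adjusted p = 0.0594), and without all 4 such rats it was -0.31 (adjusted p = 0.0526). The low-dose rats read 1.26, 1.31, 1.48, 1.05 and 0.87, a difference of -0.30 ± 0.13 (adjusted p = 0.166). On day 28 the differences were -0.03 at the high dose and -0.05 at the low dose, with adjusted p-values of 0.938 and 0.93.

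The dimmer Ano1 probe rests on a single spot per array. It read 7.67 in air rat 4 and 0.32 to 0.57 in the other air rats of day 6, so its mean in that group describes 1 spot. Its high-dose change was -1.61 ± 0.78 (SE, adjusted p = 0.111) and without rat 4 it was -0.17.

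The 3 sodium channel subunits had changes on day 6 that did not pass the test in the main fit, and 2 of them passed under other settings. Scnn1a, the alpha subunit needed for an active channel, ranged from 3.74 to 4.29 in air rats and from 3.37 to 4.11 at the high dose. The groups overlapped and differed by -0.31 ± 0.20 (SE, adjusted p = 0.23). With the slide as a term in the fit the adjusted p was 0.0291, and with Cy5 alone the difference was -0.54 (adjusted p = 0.0317). Scnn1b, the beta subunit, read 1.73, 1.86, 1.93, 2.14 and 1.83 in air and 2.51, 2.30, 2.48, 1.98 and 2.14 at the high dose. The difference was 0.38 ± 0.17 (adjusted p = 0.0854), or 0.41 with the slide in the fit (adjusted p = 0.0265). It was 0.44 without the 4 rats with heart muscle RNA (adjusted p = 0.0291). With Cy5 alone it was 0.51 (adjusted p = 0.0308), and with only the groups compared 0.38 (adjusted p = 0.0206). With the processed signals its direction turned, to -0.07 (adjusted p = 0.875). Scnn1g, the gamma subunit, had means of 4.20 ± 0.20 in air and 4.14 ± 0.26 at the high dose (SD, n = 5), a difference of -0.07 ± 0.18 (SE, adjusted p = 0.808). Low-dose rats differed from air in the 3 subunits by -0.06, 0.20 and -0.20 (adjusted p = 0.917, 0.568 and 0.562). The 95% intervals at the high dose reached from -0.72 to 0.09 for Scnn1a, from 0.03 to 0.74 for Scnn1b and from -0.43 to 0.30 for Scnn1g. A 2-fold change in either direction lay outside all 3 intervals.

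On day 28 none of the subunits passed the test. High-dose differences were 0.34 ± 0.20 for Scnn1a, 0.22 ± 0.17 for Scnn1b and 0.12 ± 0.18 for Scnn1g (SE; adjusted p = 0.41, 0.548 and 0.794). The high dose exceeded the low dose by 0.38 ± 0.18 for Scnn1g, with an unadjusted p of 0.0406 and an adjusted p of 1. Low-dose rat 52 read 2.97 and the other rats of its group 3.65 to 3.77.

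**Figure D2:**
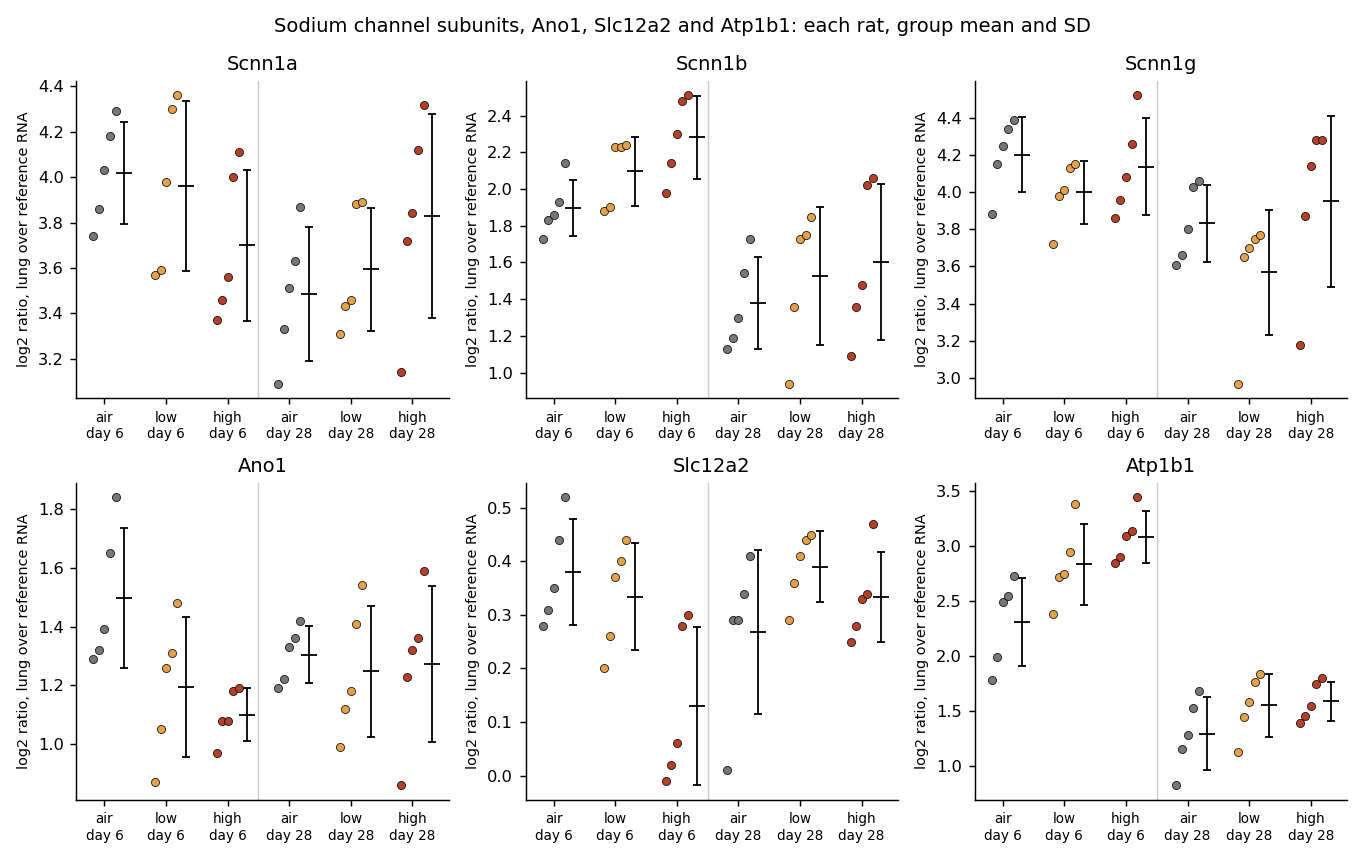
Log2 ratio of lung over reference RNA (y axis, its range differs between panels) for Scnn1a, Scnn1b, Scnn1g, Ano1, Slc12a2 and Atp1b1 in the 6 groups, each point 1 rat, with the mean and SD of 5 rats beside the points. Atp1b1 lies at or below 1.83 in the rats of day 28 and at or above 1.78 in those of day 6, and high-dose rats of day 6 lie below all air rats for Ano1.

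Slc12a2, the sodium-potassium-chloride cotransporter, fell slightly at the high dose on day 6. The air rats read 0.35, 0.31, 0.28, 0.52 and 0.44. The high-dose rats read 0.30, 0.28, 0.06, 0.02 and -0.01, so that 2 of them lay within the air range. The change was -0.25 ± 0.08 (1.19-fold lower, SE, adjusted p = 0.0121), and -0.36 with an adjusted p of 0.0603 when arrays were only centred on their median. The 4 slides gave -0.31 to -0.12. The dimmer probe differed by -0.11 ± 0.16 (adjusted p = 0.634). Low-dose rats differed from air in the brighter probe by -0.05 ± 0.08 (adjusted p = 0.794). On day 28 the high dose was 0.07 ± 0.08 above air (adjusted p = 0.706). The difference between these effects, 0.32 ± 0.11, passed the test (adjusted p = 0.0449). With the slide in the fit it was 0.25 (adjusted p = 0.0945), and leaving out any of 15 single rats ended the call, with an adjusted p of up to 0.1. Without the 4 rats with heart muscle RNA it was 0.25 (adjusted p = 0.15).

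Atp1b1, the beta subunit that brings the sodium pump to the basolateral membrane, rose at the high dose on day 6. Air rats read 1.78, 1.99, 2.49, 2.72 and 2.54. The high-dose rats read 3.13, 2.90, 3.44, 2.84 and 3.09, all above the highest air rat, as for 16.4% of all probes. The rise was 0.77 ± 0.19 (1.71-fold, SE, adjusted p = 0.00162), and 0.41 to 0.97 within the 4 slides. The low-dose rats read 2.71, 2.74, 2.38, 2.94 and 3.38, overlapping air, and the difference was 0.52 ± 0.19 (adjusted p = 0.0934). That call turned on single lungs: the adjusted p was 0.0454 without air rat 4, 0.0412 without low-dose rat 49, and 0.0141 without the 4 rats with heart muscle RNA, where the difference was 0.74. On day 28 the differences were 0.30 ± 0.19 at the high dose (adjusted p = 0.445) and 0.26 ± 0.19 at the low dose (adjusted p = 0.765).

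Counted by gene with the brightest probe, 4 of the 7 members tested at the high dose on day 6 passed the threshold. Cftr and Atp1b1 were higher and Ano1 and Slc12a2 lower. Over the whole array 35.7% of probes passed in that comparison, 20.5% higher and 15.2% lower, so 4 of 7 is read against that share. The part of those calls that was higher was 57.5%, and 42.7% with median centring, 45.2% with Cy5 alone and 45.7% with the authors' deposited table. In low-dose rats 1 of 7 passed, Cftr, against 6.27% of all probes. Between the doses on day 6, 0 of 7 passed by limma, against 11.2% of all probes. For 2 of the 7 the unadjusted p was under 0.05 (Cftr and Slc12a2), beside 24.4% of all genes.

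On day 28, 0 of the 8 members passed in any of the 3 comparisons by limma. The shares of all probes past the adjusted threshold were 0.182%, 0.0192% and 0.158%. The unadjusted p was under 0.05 for 1 member at the high dose against air (Slc26a4), for 0 at the low dose and for 1 between the doses (Scnn1g). Over all genes 15.1%, 6% and 2.62% had an unadjusted p under 0.05. The change of effect from day 6 to day 28 passed for 2 of 7 members at the high dose (Cftr and Slc12a2, against 16.1% of all probes). That of Scnn1a, 0.66 ± 0.28 (SE, adjusted p = 0.116), did not pass. It passed with Cy5 alone (1.21, adjusted p = 0.00232) and with the authors' deposited table (0.82, adjusted p = 0.0469). It also passed without high-dose rat 81 of day 28 (0.83, adjusted p = 0.027). With the slide in the fit Scnn1a passed (0.48, adjusted p = 0.0395) and Slc12a2 did not (adjusted p = 0.0945). The low-dose effect passed for 0 of 7 (1.79% of all probes). Its unadjusted p was under 0.05 for 1, Cftr, beside 10.6% of all genes.

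**Figure D3:**
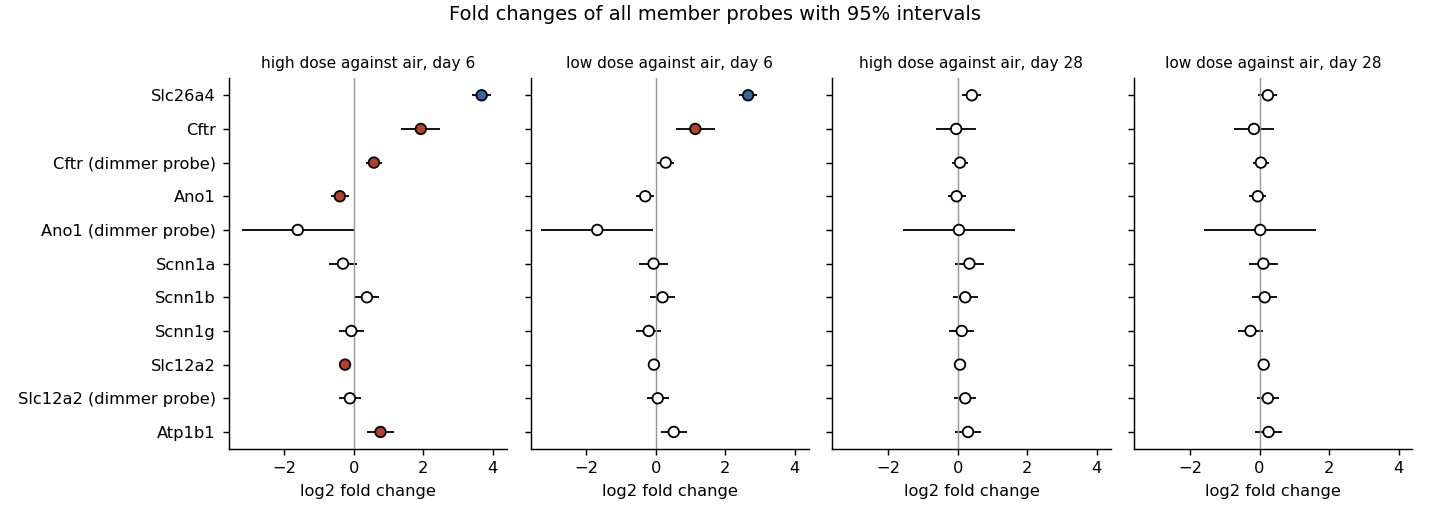
Log2 fold change against air of the same day (x axis) for all 11 probes of the 8 genes, with 95% intervals from the fit, at each dose and day; red points passed the adjusted threshold, white points did not and blue points were not tested. Slc26a4 stands at 3.68 and 2.66 on day 6 and at 0.41 and 0.24 on day 28, where no point is red.

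Rats that breathed air also differed between the days. Atp1b1 fell from 2.30 ± 0.40 on day 6 to 1.29 ± 0.33 on day 28 (SD, n = 5), and every air rat of day 28 was below every air rat of day 6 (2.59% of all probes). The change was -1.02 ± 0.19 (2.02-fold lower, SE, adjusted p = 0.00234), and from -1.09 to -0.48 within slides. It was the only one of the 8 members past the threshold in the main fit, where 2.54% of all probes passed. The sodium channel subunits differed in the same direction without passing, by -0.53 ± 0.20 for Scnn1a (adjusted p = 0.114), -0.52 ± 0.17 for Scnn1b (adjusted p = 0.087) and -0.37 ± 0.18 for Scnn1g (adjusted p = 0.199). Slc26a4 differed by -0.23 ± 0.13 (adjusted p = 0.301) and Cftr by 0.11 ± 0.28 (adjusted p = 0.842). With the slide in the fit Scnn1a passed as well (-0.48, adjusted p = 0.0217). With Cy5 alone Scnn1a (-0.94, adjusted p = 0.00607) and Scnn1g (-0.50, adjusted p = 0.024) passed. Scnn1b passed with only the groups compared (-0.52, adjusted p = 0.0355) and without air rat 8 of day 28 (-0.61, adjusted p = 0.0279). With the processed signals Scnn1a, Scnn1b and Scnn1g differed by -0.18, -0.31 and -0.17 (adjusted p = 0.422, 0.477 and 0.229).

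Among all other genes with a symbol, those whose values over the 30 rats ran most nearly parallel to Slc26a4 were ranked by Pearson r, as a description; the 30 points share the reference RNA and fall into groups by dose and day. The top 10 were Tmprss4 (0.979), Mmp12 (0.978), Orm1 (0.977), Lcn2 (0.975), Zbtb48, Rhbdl2 and Fxyd3 (0.968 each), Ly6al and Dennd2d (0.965 each) and Ccl1 (0.963). Orm1 and Ccl1 were well above background on 0 of 5 air arrays of each day and on all exposed arrays of day 6. They passed the filter on dim probes only through exposed rats. The whole ranking was made over rats that include those of day 6, and Slc26a4 was picked for its rise on that day. No place in the ranking is therefore independent of the day 6 rise. Tmprss4 is a membrane protease that cleaves and activates the epithelial sodium channel. Mmp12 is the macrophage metalloelastase, Orm1 an acute-phase protein, Lcn2 an iron-siderophore binding protein of inflamed epithelium and neutrophils, and Ccl1 a chemokine. Fxyd3 is a small regulatory subunit of the sodium pump. Lcn2 was 4.63 higher at the high dose and 4.27 at the low dose on day 6, and Mmp12 4.04 and 3.48 higher. For Cftr the closest genes were Clec10a, a lectin of macrophages (0.917), P2ry6, a receptor for UDP (0.916), and C4bpb (0.905). For Atp1b1 they were Sord (0.897), Chi3l1 (0.894) and Atp13a4 (0.890). For Ano1 they were Rbm24 (0.701), Krt15 (0.699) and Btla (0.696), lower than for any other member. Scnn1a ran closest to Timp3 (0.884), Cyp2b2 (0.857) and Tbc1d8 (0.825). Scnn1b ran closest to Tmc4 (0.907), Hpn (0.906) and Msc (0.900). For Scnn1g the nearest were Cldn18 (0.810), Cybrd1 (0.800) and Akr1c15 (0.786), and for Slc12a2 Btbd1 (0.777), Kif1b and Dapk2 (0.753 each).

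The genes that work with the members were examined in 9 lists, which held 128 genes with a measured probe. At the high dose on day 6, 38 of the 128 were higher and 28 lower, beside 21% and 15.4% of all genes, and the median change was 0.00 in the lists and 0.01 over all genes. In low-dose rats 15 were higher and 4 lower, beside 4.87% and 1.68% of all genes. For 2 of the 128, Slc5a5 and Aqp11, no air array of day 6 was well above background, and without them, a setting chosen after seeing the data, the high-dose counts were 37 and 28 of 126.

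Genes of the thiocyanate peroxidase system rose at the high dose on day 6. Pendrin supplies thiocyanate, and Duox1 and Duox2 with their maturation factors make the hydrogen peroxide with which lactoperoxidase oxidizes it. Of its 6 measured genes, Slc5a5 passed the filter on dim probes only through exposed rats and is described apart. Of the other 5, 4 rose and 0 fell, beside 21% and 15.4% of all genes, with a median of 0.90. Duoxa1 read -1.32, -1.07, -0.71, -0.89 and -1.63 in air rats and 0.65, 0.52, 0.67, 0.70 and 0.89 at the high dose. Its rise was 1.81 ± 0.16 (3.51-fold, SE, adjusted p = 4.54e-10). Duox1 rose by 1.69 ± 0.24 (adjusted p = 2.72e-06) and Duox2 by 0.90 ± 0.26 (adjusted p = 0.00709). Slc5a5, the sodium-iodide symporter, which also carries thiocyanate, was well above background on 0 of 5 air arrays of day 6, and on 2 at the low dose and 4 at the high dose. In low-dose rats Duox1 rose by 1.43 ± 0.24 (adjusted p = 0.000179) and Duoxa1 by 1.35 ± 0.16 (adjusted p = 7.71e-07), and the others did not pass. In the main fit 4.87% of all genes were higher at that dose. With Cy5 alone 4 of all 6 passed at that dose, with Slc5a5 among the 6. The share of all genes under that setting is not given here.

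Duoxa1 was the single gene of the 9 lists that passed on day 28. The air rats of that day read -1.30, -0.95, -0.87, -0.96 and -1.15, and the high-dose rats -0.13, -0.33, -0.21, 0.00 and -0.05. All 5 high-dose rats were above all air rats, as for 0.672% of all probes. The difference was 0.90 ± 0.16 (1.87-fold, SE, adjusted p = 0.00684), beside 0.076% of all genes higher in that comparison. It did not pass when arrays were only centred on their median (0.90, adjusted p = 0.126). Duox1, which lies beside Duoxa1 in the genome, was 0.96 ± 0.24 above air (adjusted p = 0.0796), again with all 5 rats above air. Over the 9 lists, 19 of 128 genes had an unadjusted p under 0.05 at the high dose on day 28, a share of 14.8% beside 15.1% of all genes. Low-dose rats had 0 past the threshold, and 6 of 128 had an unadjusted p under 0.05, beside 6% of all genes.

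Regulators of the sodium channel split into 8 higher and 5 lower of 25 at the high dose on day 6. Over all genes 21% were higher and 15.4% lower. Tmprss4 rose from between -0.24 and 0.48 in air rats to between 2.65 and 2.73 at the high dose, a change of 2.50 ± 0.13 (5.66-fold, SE, adjusted p = 4.17e-14). Serpine2, an inhibitor of serine proteases, rose by 1.43 ± 0.11 (adjusted p = 1.12e-10), and Plaur, the urokinase receptor, by 0.99 ± 0.15 (adjusted p = 5.02e-06). The mineralocorticoid receptor Nr3c2, through which aldosterone induces the channel, fell by 0.91 on the log2 scale (adjusted p = 1.87e-06). Low-dose rats had Tmprss4 higher by 1.55 ± 0.13 (adjusted p = 4.68e-09) and Nr3c2 fell by 0.59 (adjusted p = 0.0027). In all, 3 were higher and 1 lower at that dose, beside 4.87% and 1.68% of all genes. The 1 became 3 without air rat 2 or low-dose rat 47 or 49 of day 6, and 2 without high-dose rat 77 or 78 of day 6, low-dose rat 52, 54 or 55 or high-dose rat 81 of day 28. With median centring 4 of 25 were higher at the high dose.

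Sodium pump subunits moved in both directions. Of 11 subunits besides Atp1b1, 4 rose and 4 fell at the high dose on day 6, beside 21% and 15.4% of all genes. Fxyd3 rose from between 0.77 and 1.18 in air rats to between 1.93 and 2.21 at the high dose, by 1.14 ± 0.10 (adjusted p = 5.01e-10) and Fxyd5 by 0.98 ± 0.15 (adjusted p = 5.14e-06). Fxyd5, another small regulatory subunit, is also known to affect cell adhesion. In low-dose rats 4 rose, beside 4.87% of all genes, among them Fxyd3 by 0.91 ± 0.10 (adjusted p = 3.05e-07). Those 4 became 2 without air rat 1, 2 or 5 or low-dose rat 51, 1 without low-dose rat 48 and 1 with median centring. The 4 that fell at the high dose became 2 without air rat 4.

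**Figure D4:**
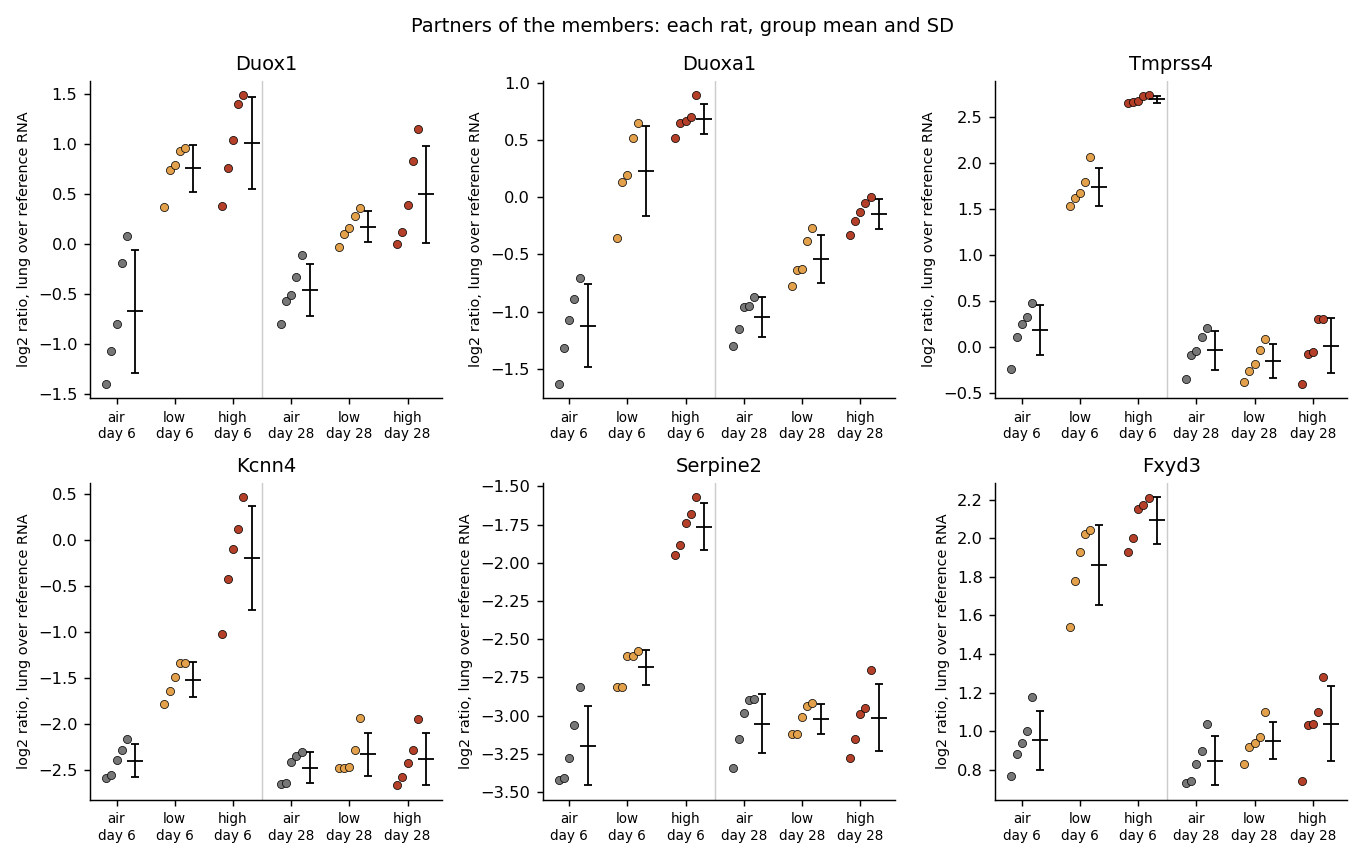
Log2 ratio of lung over reference RNA (y axis, its range differs between panels) for 6 genes that work with the members, in the 6 groups, each point 1 rat, with the mean and SD of 5 rats beside the points. The high-dose rats of day 6 lie above all air rats in every panel, and on day 28 Duox1 and Duoxa1 have all high-dose rats above air while the other 4 genes overlap.

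Chloride and bicarbonate exchangers and chloride channels other than the members were divided. Of 53 listed and 30 measured, 7 rose and 6 fell at the high dose on day 6, and 1 rose and 1 fell at the low dose. Over all genes the shares were 21% and 15.4% at the high dose and 4.87% and 1.68% at the low dose. Slc26a6, an exchanger of the pendrin family, rose by 1.01 ± 0.20 (2.01-fold, SE, adjusted p = 0.000192) with overlap between the groups. Ano10 fell by 0.71 on the log2 scale (adjusted p = 1.09e-06) at the high dose and by 0.43 (adjusted p = 0.00384, or 0.199 with median centring) at the low dose. Clca2 fell by 0.63 on the log2 scale at the high dose (adjusted p = 7.09e-05), where it was well above background on 0 of 5 arrays. Pacc1, a proton-activated chloride channel, rose by 0.41 ± 0.09 at the low dose (adjusted p = 0.00612). The list median was 0.05 at the high dose. The 1 that rose at the low dose became 4 without air rat 4 of day 6 and 3 without high-dose rat 81 of day 28. It became 2 without air rat 2, low-dose rat 47 or 51 or high-dose rat 76 of day 6, or without air rat 6, low-dose rat 52 or high-dose rat 80 or 84 of day 28.

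Potassium channels, which keep the driving force for chloride exit, included 4 that rose and 4 that fell of 16 at the high dose. The shares of all genes were 21% and 15.4%. Kcnn4, the calcium-activated channel, rose from -2.40 ± 0.18 in air to -0.19 ± 0.57 (SD, n = 5), a change of 2.21 ± 0.18 (4.64-fold, SE, adjusted p = 2.21e-10). It is also the channel of activated leukocytes. Kcnk6 rose by 0.73 ± 0.10 (adjusted p = 2.74e-06). Kcnmb2 fell by 1.36 on the log2 scale (adjusted p = 9.65e-05) and Kcnk2 by 1.14 (adjusted p = 7.06e-05). Low-dose rats had 3 higher and 0 lower, beside 4.87% and 1.68% of all genes. Among the 3 were Kcnn4, higher by 0.88 ± 0.18 (adjusted p = 0.00226), and Kcne2, by 0.72 ± 0.21 (adjusted p = 0.0331). The Kcne2 call was lost without any one of air rats 1, 2, 4 and 5 and low-dose rats 48, 50 and 51, with adjusted p-values of 0.0505 to 0.116. With median centring 2 rose at the high dose and 1 at the low dose.

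Of 11 cotransporters related to Slc12a2 and their kinases, 2 rose and 5 fell at the high dose on day 6. Over all genes 21% rose and 15.4% fell. The largest changes were 0.53 ± 0.07 for Cab39l, a scaffold of the kinases (SE, adjusted p = 1.13e-06), and -0.48 ± 0.11 for Slc12a8 (adjusted p = 0.00102). Slc12a9 rose by 0.45 ± 0.09 (adjusted p = 0.000236) and Slc12a4, a potassium-chloride cotransporter, fell by 0.45 on the log2 scale (adjusted p = 0.000667). In low-dose rats 1 rose and 0 fell, beside 4.87% and 1.68% of all genes. The 1 was Cab39l, higher by 0.29 ± 0.07 (adjusted p = 0.0095). The 0 became 1 without low-dose rat 47 or 49 of day 6 or high-dose rat 84 of day 28. Median centring ended the calls of Slc12a9 (adjusted p = 0.0715) and of Cab39l at the low dose (0.288).

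Of 15 genes of proton and bicarbonate handling, 4 rose and 3 fell at the high dose, beside 21% and 15.4% of all genes. Car2, a cytosolic carbonic anhydrase that makes bicarbonate, rose by 0.71 ± 0.10 (SE, adjusted p = 2.14e-06) and by 0.51 ± 0.10 at the low dose (adjusted p = 0.00116, or 0.225 with median centring). Car8, a relative without that catalytic activity, rose by 1.27 ± 0.21 (adjusted p = 3.05e-05). Car5b, the mitochondrial form, fell by 1.02 on the log2 scale (adjusted p = 3.85e-07), and by 0.67 at the low dose (adjusted p = 0.000939). Nherf2, a scaffold that binds Cftr and sodium-proton exchangers, fell by 0.91 (adjusted p = 0.00543) with overlap between the groups.

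Of 8 water channels, 2 rose and 1 fell at the high dose, beside 21% and 15.4% of all genes. At the low dose 0 passed by limma, and 1 had an unadjusted p under 0.05, beside 20.4% of all genes. Aqp3, of basal cells and some leukocytes, rose by 0.95 ± 0.18 (SE, adjusted p = 0.000139) and Aqp9, of leukocytes and liver, by 0.78 ± 0.19 (adjusted p = 0.00189). Aqp1, the water channel of capillary endothelium, fell by 0.85 on the log2 scale (adjusted p = 0.00244). Of the cytokines that induce pendrin and their receptors, 6 of 13 listed genes were measured. At the high dose 2 of these 6 rose and 0 fell, beside 21% and 15.4% of all genes, with a list median of -0.11. The 0 became 1 without air rat 4 of day 6 or high-dose rat 83 of day 28. Ifngr2 rose by 0.99 ± 0.11 (adjusted p = 2.13e-08) and Il13ra1, a chain of the receptor for Il4 and Il13, by 0.37 ± 0.09 (adjusted p = 0.00179, or 0.241 with median centring) at the high dose. Of the 6, 0 passed at the low dose by limma and 2 had an unadjusted p under 0.05, beside 20.4% of all genes. Without low-dose rat 49, 1 passed at that dose here and 1 among the water channels.

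**Figure D5:**
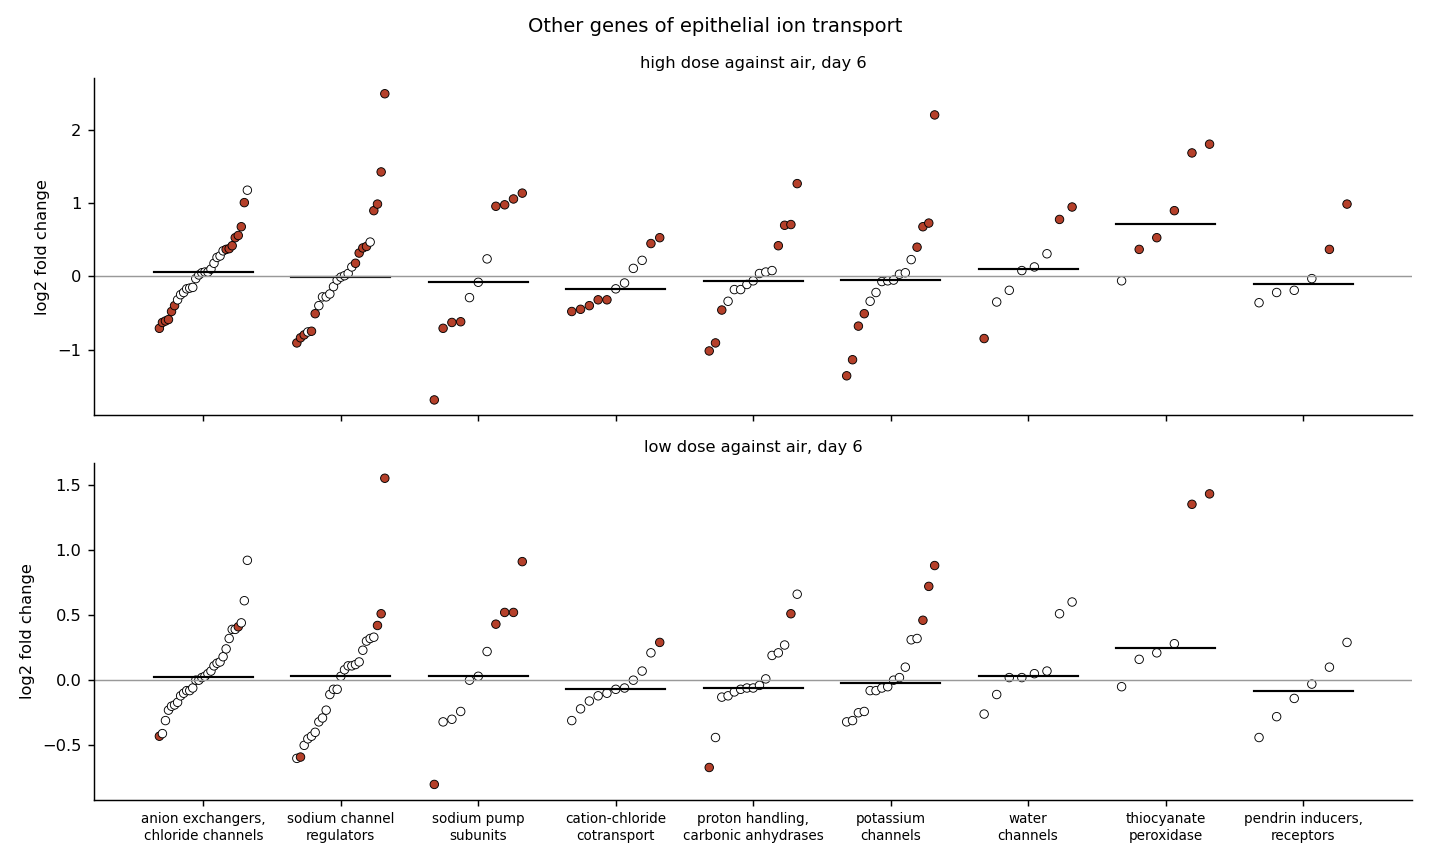
Log2 fold change against air on day 6 (y axis) of the 128 measured genes in 9 lists of epithelial ion transport (x axis), at the high dose (top) and the low dose (bottom); red points passed the adjusted threshold and bars are list medians. The thiocyanate peroxidase list, drawn with Slc5a5, has a median of 0.71 at the high dose and no red point below 0, while most other lists hold red points on both sides.

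Some cell markers moved with the members on day 6, and their part in the members' changes was not tested. At the high dose 21% of all genes were higher and 15.4% lower, and the counts below stand beside those shares. The mean of 10 leukocyte markers ranged from 0.74 to 1.07 in air rats, from 1.18 to 1.49 at the low dose and from 1.29 to 2.05 at the high dose, with 7 of 10 higher at the high dose, such as Itgam (2.14 ± 0.18, SE, adjusted p = 4.76e-10). The mean of 12 pan-epithelial markers ranged from 1.42 to 1.76 in air, from 1.62 to 1.85 at the low dose and from 1.71 to 2.01 at the high dose. Of these 12, 2 were higher and 1 lower at the high dose, no more than the shares of all genes. The median change of the list was 0.25, and the largest was that of Elf3. Elf3, an epithelial transcription factor, rose by 2.15 ± 0.18 at the high dose (adjusted p = 2.83e-10) and by 1.11 ± 0.18 at the low dose (adjusted p = 0.00012). Of 9 type I cell markers 7 fell at the high dose and 0 rose, such as Cav1 (-1.60 ± 0.14, adjusted p = 8.73e-10). The list mean was 4.33 to 4.67 in air and 3.44 to 3.97 at the high dose. Of 9 type II cell markers 3 rose and 1 fell, of 8 club and goblet markers 2 rose, and of 7 ciliated markers 1 rose and 1 fell. Of 6 basal markers 1 rose, Aqp3, and 2 fell.

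Pulmonary ionocytes, the airway cells richest in Cftr, were not visible by their defining factor. Foxi1 and the proton pump subunit Atp6v1g3 were well above background on 0 of 30 arrays. Of the 5 ionocyte markers with a measured probe 0 passed at the high dose by limma. None of the 5 had an unadjusted p under 0.05, beside 45.2% of all genes. Low-dose rats had 1 of the 5 higher, beside 4.87% of all genes. It was Tfcp2l1, by 0.62 ± 0.14 (SE, adjusted p = 0.00464). Of 10 heart muscle markers 1 fell at the high dose, Cox8b, and of 7 smooth muscle markers 1, Myh11, beside 15.4% of all genes.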

How the data were processed

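Lung RNA of each rat (200 ng, integrity number above 7) carried Cy5 and the shared reference Cy3, per the labels. The labels name that reference as a mouse RNA in one place and as RNA of 14 rat cell lines in another. Rats with a dose of 0 mg/m3 carry the particle as treatment label and are taken here as the air group of the protocol. The deposited scanner output gives the intensity of every spot, which Feature Extraction measured, per the file headers. The authors' deposited table holds 1 log2 ratio per probe and array; the steps behind it are not given here, and it was used as an alternative. Its log2 values correlated at 0.997 to 1.000 per array with loess ratios made without background correction, so log2 of lung over reference is taken as their scale and direction; its column medians ran from -0.0314 to -0.00539.

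Median spot intensities were corrected with normexp on the median local background (offset 50), which compresses changes of dim probes, and the log2 ratio (Cy5 over Cy3) of each array was normalized by loess. Control and outlier-flagged spots had no weight and were left out, and spots of a probe were averaged. Probes well above background in Cy5 on at least 5 of 30 arrays were kept, 20853 of 30367. Accessions were named through a RefSeq gene table of assembly GRCr8 (18005 probes with a symbol); array coordinates, on an older assembly, were not used. Each gene was read from its brightest kept probe, which gave 18421 genes. All 6 groups were fitted together with limma 3.58.1 in R 4.3.3 (lmFit, eBayes), with Benjamini-Hochberg adjustment over all kept probes within each of 9 comparisons and a threshold of 0.05. All adjusted p-values are from this fit unless another setting is named. The number of rats limits the precision. The pipeline was tested on simulated data.

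The members and lists were chosen with earlier results of these data known. Named genes are all members, the 10 genes most correlated with Slc26a4 and 3 for each other member, and from each list up to 4 passing genes with the largest high-dose change on day 6 and up to 2 in other comparisons with air; from each marker list up to 2, not all of which are printed. Some genes that this rule names are not reported here. Arrays lay on 4 slides, each group on at least 3. Alternatives were other background corrections and normalizations, the Cy5 channel alone, the authors' table, other filters, the slide in the fit or values within slides, another choice of samples, probes, variance model or threshold, and leaving out each rat.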

Additional observations from a re-analysis of the deposited data

Results flagged for a closer look

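Among 66 sets of 5 rats (11 probes in 6 groups), 4 held a rat far from the rest of its group; chance flags about 1 in 20 sets. Slc26a4 in high-dose rat 76 of day 6 was 3.66, below the next rat at 4.22 and above every low-dose rat. The dimmer Ano1 probe in air rat 4 of day 6 was 7.67, against a next value of 0.57. Scnn1g in low-dose rat 52 of day 28 was 2.97, against 3.65. The dimmer Slc12a2 probe in low-dose rat 47 of day 6 was -0.32, against 0.25.

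The effect of the high dose differed between the days, by a test of that difference in limma, for Cftr (-1.97, adjusted p = 0.000601), for the dimmer Cftr probe (-0.51, adjusted p = 0.0331, lost when any of 8 single rats was left out) and for Slc12a2 (0.32, adjusted p = 0.0449). The dimmer Cftr probe also lost its call without background correction (adjusted p = 0.147) and with the authors' deposited table (0.331). It lost it too with the processed signals (0.174) and with only the groups compared (0.0595). That probe was well above background on 0 of 5 air arrays of day 6 and 1 of 5 of day 28.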

How the results depend on the processing

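Of the other settings, those that moved a count of members past the threshold by over 1.5 times were these, and the cause was not tested unless stated. At the high dose on day 6 the count of 4 became 2 with a 1.5-fold minimum, by construction. Over 13 settings that count ran from 2 to 6. At the low dose on day 6 the count of 1 became 0 with processed signals and 2 without the 4 rats with heart muscle RNA, a setting chosen after seeing the data. Between the doses on day 6 the count of 0 became 2 with Cy5 alone (Cftr and Slc12a2), 1 with the authors' deposited table (Slc12a2) and 1 with the slide block or only the groups compared (Cftr). At the high dose on day 28 it became 1 with Cy5 alone. For the change of the high-dose effect between days the count of 2 became 1 with processed signals, median centring, only the groups compared, a 1.5-fold minimum, or without the 4 rats. For the low-dose effect the count of 0 became 1 without the 4 rats. In air rats between days the count of 1 became 3 with Cy5 alone, 2 with the slide block and 2 with only the groups compared. Leaving out each rat in turn gave 3 to 4 members at the high dose and 1 to 2 at the low dose on day 6, 0 to 2 between the doses (2 without high-dose rat 76), 1 to 3 and 0 to 1 for the high-dose and low-dose effects between days, and 1 to 2 in air rats. No member with a call changed direction under any setting.

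The Slc26a4 difference on day 6 was 3.59 to 4.37 at the high dose and 2.59 to 3.54 at the low dose over 12 settings with all slides together. Its probe, and the dimmer probes of Cftr and Ano1, were not run under the filter that asks for all 30 arrays. Counts over all probes moved as follows. With median centring the 1307 calls at the low dose on day 6 became 592, the 2342 between doses 1097, the 38 at the high dose on day 28 12, the 3347 and 373 for the high-dose and low-dose effects between days 1764 and 166, and the 530 in air rats 143. A 1.5-fold minimum left 2956 of 7447 at the high dose and 570 at the low dose on day 6, 893 between doses, 22 at the high dose on day 28, 2109 for the high-dose effect and 210 in air rats. With only the groups compared the count was 17 at the high dose on day 28, 12 in place of 33 between the doses of that day and 1228 in air rats, which had 997 calls without the 4 rats. On day 28 Cy5 alone gave 124 at the high dose and 7 in place of 4 at the low dose, processed signals 62 and 8, and 1 probe per gene 2 at the low dose. Leaving out each rat gave 14 to 350 at the high dose on day 28, 197 to 2740 in air rats and 1440 to 2767 between doses on day 6. The share of calls that were higher at the low dose on day 6 was 74.3%, and 57.7% with Cy5 alone; in air rats it was 62.1%, and 23.1% with median centring. Signals near background limit Slc26a4 in unexposed rats. No paired analysis was possible because the groups share no replicate numbers.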
